A study of Anguilla anguilla with 45 samples.

Results

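Caudal fins of wild European eels (Anguilla anguilla) from the Garonne were compared with caudal fins of wild eels from Certes. The rule took the 5 fin arrays titled with Garonne and an eel number (A353, A359, A360, A362 and A365) and the 5 titled with Certes (A201, A203, A205, A207 and A210), 10 of the 45 arrays of the series. Of 992 contigs, assembled transcript sequences printed on the array, 450 had 3 or more values at each site and were tested. The contigs carry only a number, and 0 of them matched an entry of the RefSeq gene table, so neither gene functions nor the tissue's marker genes could be looked up and contigs are given by number.

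Each fin array was hybridised with Cy3-labelled RNA of 1 eel's fin and a Cy5-labelled common reference. The reference was pooled from 30 wild Certes eels (15 from each of 2 collection years) and labelled as liver. All fin values below are therefore log2 ratios of a fin to this reference, relative to the median of their own array. The ratio is read as sample over reference, which is likely from the dyes in the labels but is not stated with the values. With the opposite reading every sign would turn. The other fin groups, also 5 arrays each, entered the fit to estimate the spread of each contig: wild Gironde eels, laboratory controls, laboratory eels fed polychlorinated biphenyls (PCBs) at 50 or 300 ng/g, and laboratory eels held in water with 4 µg/L cadmium (Cd). The liver arrays of the series, 5 of laboratory controls and 5 of laboratory eels held at 4 µg/L Cd, did not enter the fit. They are used below only for comparison. The sources used here do not give contaminant loads, ages or sizes of the wild eels.

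As background, the European eel grows for years in coastal and fresh waters before it returns to the ocean to spawn, and its fat tissue stores persistent pollutants such as PCBs. The Garonne is the river that feeds the Gironde estuary, and Certes lies on the Arcachon Bay coast. A piece of tail fin can be taken from a living fish, and it consists of skin, connective tissue, bony rays, vessels and nerves. Differences between fins can thus reflect the mix of cells as well as the RNA per cell, and in such bulk samples fewer cells of a type and less RNA per cell cannot be told apart.

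Some arrays of the other groups stood apart from their fin label. The mean of both sites was taken over the 313 contigs with a value on all 10 Garonne and Certes arrays. Every other array was compared with it over those of the 313 contigs that the array held. These were 152 to 284 contigs on Gironde arrays, 280 to 310 at 50 ng/g PCBs, 253 to 312 at 300 ng/g PCBs and 271 on Cd fish 45. The mean of both sites correlated with control fins at 0.827 to 0.914 and with 300 ng/g PCB fins at 0.813 to 0.915. With 50 ng/g PCB fins it correlated at -0.112 to 0.277 and with Gironde fins at -0.156 to 0.530. Cd fish 45 stood at -0.073 and the other 4 Cd fins at 0.638 to 0.919. Control livers lay at 0.093 to 0.352 and Cd livers at 0.087 to 0.366. contig_2266, near -8 in both sites, in control fins and at 300 ng/g PCBs, was at 0.64 ± 0.68 (SD, n = 5) in the 50 ng/g PCB fins and at 2.51 in Cd fish 45, against -0.95 to 1.36 in the livers. These correlations, across contigs, describe the arrays. The tests of single contigs below are given with these arrays in the fit and, for the counts and the contigs past the threshold, without the Gironde, 50 ng/g PCB and Cd fish 45 arrays.

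Garonne fins gave values for fewer contigs than Certes fins. Garonne arrays A353, A359, A360, A362 and A365 held 404, 596, 580, 517 and 389 contigs, and Certes arrays A201, A203, A205, A207 and A210 held 935, 866, 861, 640 and 598. The sites did not overlap, although the highest Garonne array (596) and the lowest Certes array (598) lay next to each other, and the Certes arrays themselves fell into 3 arrays at 861 to 935 and 2 at 598 and 640. The difference of means was -282.8 contigs, and the exact permutation test (two-sided) gave p = 0.0079, its smallest possible value with 5 arrays a site (adjusted p = 0.012 over 3 array-level tests). The means of the other fin groups lay between 740.2 and 890.4 contigs. Single arrays of these groups held 470 to 988 contigs. The lowest, a 300 ng/g PCB fin, lay within the Garonne range.

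**Figure D1:**
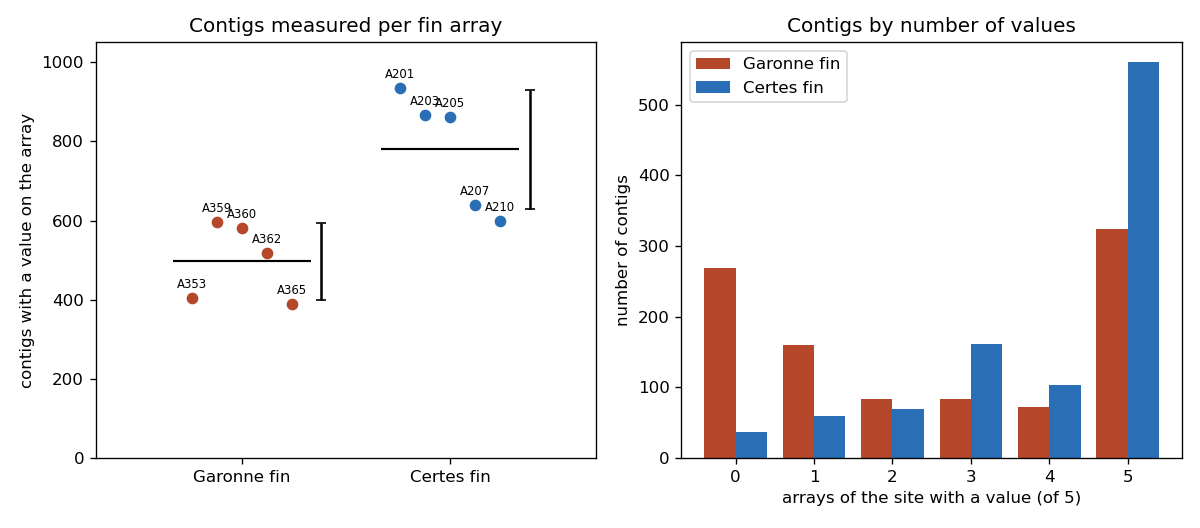
Left, number of contigs with a value on each fin array, with the mean (line) and SD (bar) of the 5 arrays per site. Right, number of contigs by how many of the 5 arrays of a site held a value; 269 contigs had no value on any Garonne array, against 37 on the Certes arrays.

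Over all arrays of a site, 49.9% of values were missing in Garonne fins and 21.4% in Certes fins. In Garonne fins 324 contigs had all 5 values and 269 had none. In Certes fins 560 contigs had all 5 values and 37 had none. At least 3 values were present for 480 contigs in Garonne fins and for 826 in Certes fins. Most contigs that could not be tested were short of values on the Garonne side: 376 had under 3 Garonne values but 3 or more Certes values, 30 were the reverse, and 136 were short at both sites. The extremes were 47 contigs with all 5 Certes values and no Garonne value, and 3 contigs with all 5 Garonne values and no Certes value.

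Contigs short of values at only 1 site differed in level by which site that was. Among contigs with all 5 Certes values, the median Certes log2 ratio was 0.72 for the 47 contigs without a Garonne value, 0.48 for the 46 with 1 value, 0.40 for the 39 with 2, 0.21 for the 57 with 3, 0.20 for the 58 with 4 and -0.48 for the 313 with all 5. By their medians, contigs that dropped out of Garonne fins thus lay above the centre of the Certes arrays. Of the 47 without any Garonne value, 37 had a Certes mean above 0, and of the 46 with 1 value 27 did. Contigs with under 3 Certes values but at least 3 Garonne values lay far below the reference. These 30 contigs had a median Garonne log2 ratio of -5.06, and 29 of the 30 lay below -3. No such level was taken for the 136 contigs short of values at both sites. A further 100 and 51 contigs had 3 and 4 Certes values but no Garonne value, so their Certes gaps have no Garonne level. In Certes fins 162 contigs had 3 values and 104 had 4, and the 30 contigs do not cover these gaps. The 376 contigs with under 3 Garonne and 3 or more Certes values, many with Certes gaps too, had a median Certes log2 ratio of 0.62. Contigs share arrays and are no replicates, so these levels are given without a test.

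**Figure D2:**
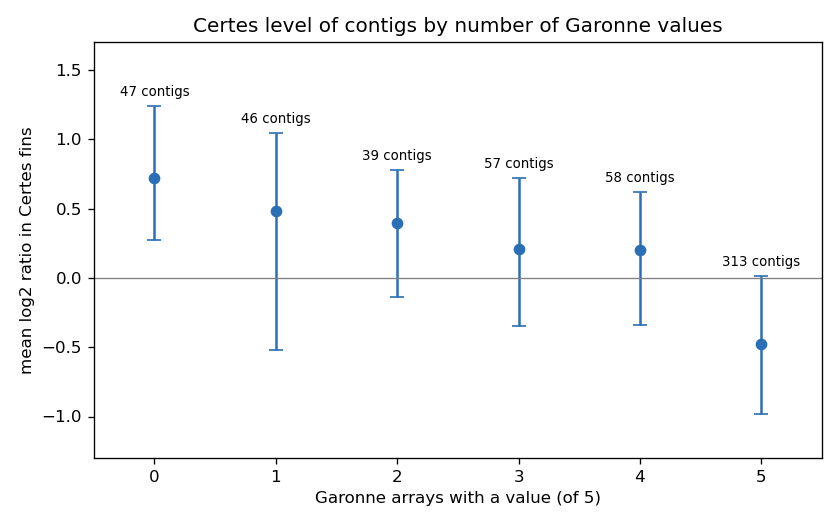
Mean log2 ratio in Certes fins (median and interquartile range over contigs with all 5 Certes values) by the number of Garonne arrays with a value. The median is 0.72 for contigs with no Garonne value and -0.48 for those with all 5.

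Counted over all values of each array, contigs far below the reference were more often found on Garonne arrays. The Certes arrays differed in what they held for these contigs. Garonne arrays A353, A359, A360, A362 and A365 had 49, 48, 62, 46 and 28 contigs below -4, and Certes arrays A201, A203, A205, A207 and A210 had 21, 19, 23, 13 and 28. On Certes array A207, 33, 39, 48, 33 and 16 of the contigs below -4 on these Garonne arrays had no value, and on Certes array A201, which held the most contigs, 15, 10, 20, 14 and 10 had none. The numbers without a value were 19, 24, 33, 22 and 11 on A203, 18, 22, 34, 23 and 11 on A205, and 24, 38, 46, 29 and 12 on A210. Certes A201 instead had 9, 25, 21, 14 and 1 of them above -1, and A207 had 1, 0, 1, 0 and 0. On A207 these contigs were thus mostly blank, whereas on A201 most had a value, which for A359 alone lay above -1 in most of the contigs. Of 46 contigs with 3 or more Garonne values and a Garonne mean below -4, 27 could not be tested for want of Certes values. Of the 19 with 3 or more Certes values, 11 also had a Certes mean below -4. Over the 313 contigs with a value on all 10 arrays, Garonne fins did not hold more values below -4. The counts there were 11, 8, 8, 7 and 7 in Garonne fins and 8, 10, 10, 8 and 11 in Certes fins, in the same order of arrays.

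For the 313 contigs with a value on all 10 arrays, the profile of both sites was alike in order and differed in centre and spread. Across these contigs the site means correlated at 0.909 (Pearson; Spearman 0.849), and 241 of 313 lay on the same side of the array centre at both sites. These correlations describe the contigs, which share arrays and the reference. At the low end, contig_2266 stood at -8.53, -7.33, -8.41, -8.34 and -7.38 in Garonne fins A353, A359, A360, A362 and A365, and at -8.41, -8.15, -8.02, -7.59 and -8.04 in Certes fins A201, A203, A205, A207 and A210. The ranges overlapped and the difference was 0.04 ± 1.13 (SE). contig_16133 was second lowest, at -6.17 ± 1.60 in Garonne fins and -5.69 ± 0.30 in Certes fins (SD, n = 5 each). At the high end contig_10751 averaged 2.76 ± 1.19 in Garonne fins and 2.19 ± 0.44 in Certes fins (SD, n = 5 each), with overlapping ranges. The contig with the highest level over both sites, contig_33460, differed between sites and is described below.

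The centre of this shared set lay higher in Garonne fins. The mean log2 ratio over the 313 contigs was 0.09, -0.04, -0.26, -0.33 and 0.03 in Garonne fins A353, A359, A360, A362 and A365, and -0.53, -0.40, -0.62, -0.72 and -0.68 in Certes fins A201, A203, A205, A207 and A210. No Garonne array overlapped with a Certes array. The difference was 0.49 (exact two-sided permutation p = 0.0079, adjusted p = 0.012). The 313 contigs were set by the missing values of these same arrays. This p-value therefore cannot tell a shift of levels from that choice of contigs. The deposited arrays are each centred on the median of all their own values, and the 5 Garonne arrays kept contigs whose Certes means had a median of -0.45 to -0.20, against 0.61 to 0.73 for the contigs they lacked. Over all values of each array the sign of the difference in means was the opposite, -0.30. Over the 65 contigs present on all 35 fin arrays the difference was 0.16, with an exact permutation p of 0.238.

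The 2 Certes arrays with the fewest contigs, A207 (640) and A210 (598), had the lowest means of all, -0.72 and -0.68. Within Garonne fins, A353 (404) and A365 (389) had the highest means, followed by A359, which had the most contigs (596). The number of contigs does not tell at which levels an array lacked values. The part of the missing values in the difference between sites was not tested.

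Ratios of the 313 contigs were also spread more widely in Garonne fins. The SD over these contigs was 1.83, 1.42, 1.61, 1.59 and 1.84 in Garonne fins A353, A359, A360, A362 and A365, and 1.34, 1.18, 1.26, 1.23 and 1.32 in Certes fins A201, A203, A205, A207 and A210. The lowest Garonne value, of A359, was above the highest Certes value, of A201. The mean absolute log2 ratio averaged 1.15 ± 0.15 in Garonne fins and 0.94 ± 0.08 in Certes fins (SD, n = 5 each), a difference of 0.21 (exact two-sided permutation p = 0.032, adjusted p = 0.032), and A359 at 0.94 lay within the Certes range of 0.80 to 1.01. As for the mean, this p-value cannot tell a wider spread from the choice of the 313 contigs. The mean absolute log2 ratio also contains the shift in centre between the sites. After recentring every array on the 313 contigs, which was chosen after seeing the data, the difference in mean absolute log2 ratio was 0.31. Over all values of each array it was 0.60 (exact permutation p = 0.0079). With the median over contigs it was 0.13 (exact permutation p = 0.103), and over the 65 contigs on all fin arrays 0.016 (exact permutation p = 0.913). It also missed an exact permutation p of 0.05 without Garonne A353, A360, A362 or A365 or Certes A203 or A205, at differences of 0.17, 0.22, 0.21, 0.17, 0.17 and 0.21 (p = 0.063 each).

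**Figure D3:**
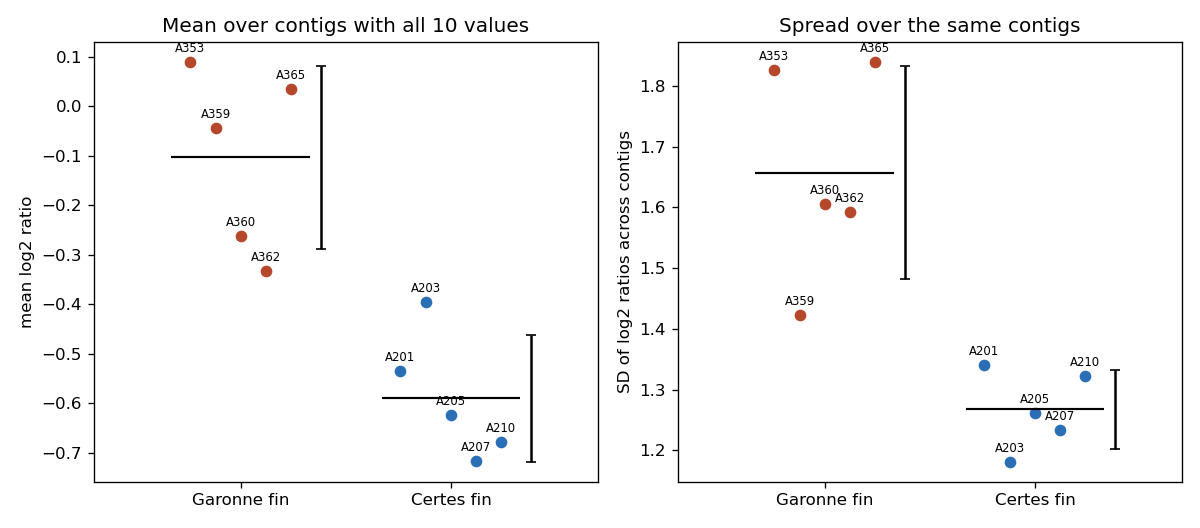
Mean (left) and SD (right) of the log2 ratios of the 313 contigs with a value on all 10 arrays, 1 point per array, with the mean (line) and SD (bar) of each site. In both panels the 5 Garonne arrays lie above the 5 Certes arrays; the vertical axes do not start at 0.

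With the deposited centring, the difference between Garonne and Certes was larger in classes of contigs with a higher level. When the 313 contigs were sorted by their mean in laboratory control fins, which belong to neither site, the median difference between Garonne and Certes was 0.05 for the 22 contigs below -2, 0.25 for the 18 from -2 to -1, 0.32 for the 119 from -1 to 0, 0.56 for the 128 from 0 to 1 and 0.62 for the 26 at 1 or above. In the top class the array means were 1.46 to 2.21 in Garonne fins and 0.76 to 1.22 in Certes fins, without overlap. In the bottom class they were -4.01 to -3.02 in Garonne fins and -4.07 to -3.32 in Certes fins, with overlap. After recentring on the 313 contigs the medians were -0.33, -0.13, -0.05, 0.18 and 0.24 in the same order of classes, so that the order stayed, while the lower 3 classes turned negative and the lowest class had the largest size. The array means of the top class then were 1.74 to 2.16 in Garonne fins and 1.16 to 1.62 in Certes fins. The interquartile ranges of neighbouring classes overlapped, and the classes were not tested against each other. Above 4, the 5 Garonne arrays held 6, 0, 2, 2 and 8 of the 313 contigs, and each Certes array held 0. Over all values of each array the sites overlapped in this count. Garonne arrays A353, A359, A360, A362 and A365 then held 12, 18, 13, 17 and 15 contigs above 4. Certes arrays A201, A203, A205, A207 and A210 held 15, 9, 16, 14 and 15.

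**Figure D4:**
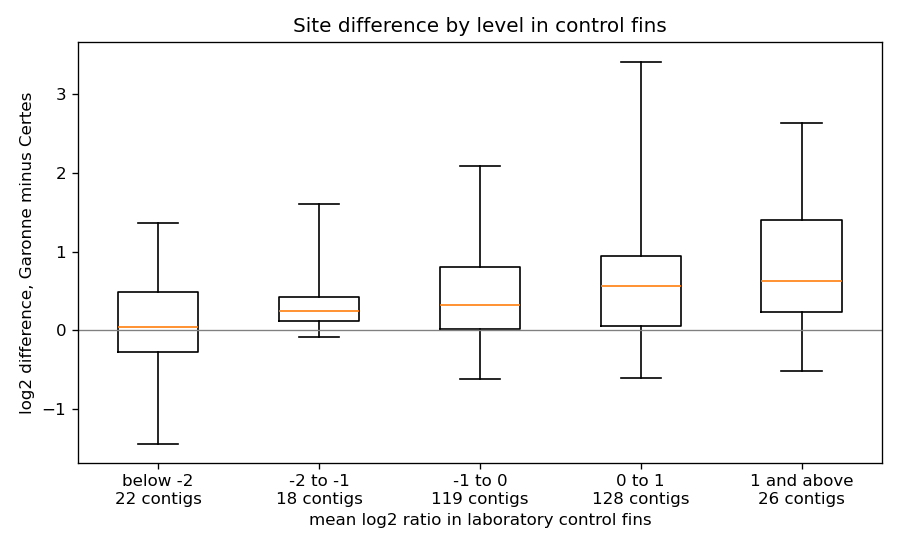
Log2 difference, Garonne minus Certes, of the 313 contigs with all 10 values, by their mean log2 ratio in laboratory control fins (box, quartiles with the median; whiskers, lowest and highest contig). The medians are 0.05 in the lowest class and 0.62 in the highest; after recentring on the 313 contigs they are -0.33 and 0.24.

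The likeness between arrays depended on the contigs compared. Over the 313 contigs, the 10 pairs of Garonne arrays correlated at 0.724 to 0.874 (mean 0.796), the 25 pairs of a Garonne and a Certes array at 0.637 to 0.909 (mean 0.791), and the 10 pairs of Certes arrays at 0.815 to 0.929 (mean 0.874). Garonne A359 correlated with the Certes arrays at 0.805 to 0.909, and A365 at 0.637 to 0.742. Over all contigs that 2 arrays had in common, the 10 Garonne pairs correlated at 0.728 to 0.849 (mean 0.802), the 25 pairs across sites at 0.351 to 0.804 (mean 0.656) and the 10 Certes pairs at 0.698 to 0.880 (mean 0.773). Garonne pairs thus stood above pairs across sites in their mean over all common contigs, and level with them over the 313. A359 and Certes A201 had 565 contigs in common and correlated at 0.351, against 0.909 over the 313. The contig SD between eels had a median of 0.52 in Garonne fins and 0.37 in Certes fins, and it was larger in Garonne fins for 235 of the 313 contigs.

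Single contigs were tested with limma on all 35 fin arrays. The SE of a difference is from this fit and pools the spread of all fin groups, not that of Garonne and Certes fins alone. Of the 450 contigs, 9 (2.00%) passed a Benjamini-Hochberg adjusted p of 0.05, 8 of them higher in Garonne fins (1.78%) and 1 lower (0.222%), and 64 had an unadjusted p under 0.05. In each of the 9 the SD between eels was larger in Garonne than in Certes fins, as in contig_1093 with 2.44 against 0.10. The fit takes the same spread for all groups, so its SE does not show this difference. The median difference over all 450 was 0.48, and 79.8% of contigs had a higher mean in Garonne fins, so differences are to be read against that shift. Recentring the arrays on the 313 shared contigs moved the median difference to 0.11, left 57.3% of contigs higher in Garonne fins, and left 3 contigs past the threshold, contig_14152, contig_17000 and contig_18948, all higher. At the deposited centring, Garonne fins lay wholly above Certes fins for 33 (10.5%) of the 313 contigs with all values and wholly below for 0 (0%). At this centring 3 of the 313 passed the threshold, and of these only contig_17000 also passed after recentring. Contigs without overlap were not counted after recentring.

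The 8 contigs that were higher in Garonne fins stood above the centre of the array in Garonne fins and, except for contig_33460 (1.64), near it in Certes fins. Their means were 2.72 to 4.47 in Garonne fins and -0.24 to 1.64 in Certes fins, with differences of 2.63 to 3.94. All 8 had 5 Certes values, and 3, 3 and 2 of them had 5, 4 and 3 Garonne values. For 7 of the 8 every measured Garonne fin was above every Certes fin. In all 9 contigs past the threshold the Garonne mean was the one farther from 0. These contigs were chosen for a large difference, so both counts follow in part from that choice. Among the 313 contigs with all values, at the deposited centring, Garonne fins lay wholly above Certes fins for 33 (10.5%). The Garonne mean was farther from 0 for 170 of the 313. Only 3 of the 8 higher contigs are among these 313, as the others had 3 or 4 Garonne values. With fewer values a lack of overlap is more easily reached, so the shares are not matched to the 8. The shares over all contigs tested are not given here.

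Among the higher contigs, the 2 largest differences rested on 3 Garonne eels each. contig_25453 was at 2.66, 3.52 and 7.22 in Garonne fins A359, A360 and A362, and at -0.09, 0.00, 0.44, 1.11 and 1.16 in Certes fins A201, A203, A205, A207 and A210. Without overlap, the difference was 3.94 ± 0.95 (SE, limma adjusted p = 0.021), and Garonne eel A362 stood well above the other two. contig_14152 was at 5.03, 1.54 and 4.39 in Garonne fins A353, A359 and A360, and at 0.50, 0.12, 0.20, -0.10 and -0.10 in Certes fins A201, A203, A205, A207 and A210. The difference was 3.53 ± 0.73 (SE, limma adjusted p = 0.0067), again without overlap. The call of contig_25453 ended in the fits of the 10 or of the 15 wild arrays, on either recentring, on scaling, on quantile normalization and without Certes A201 or A203, at differences of 2.81 to 3.94. That of contig_14152 ended on scaling (2.46), on quantile normalization (3.01) and in the fit of the 10 recentred arrays (3.06), added after seeing the data, which also ended that of contig_25453 (3.61). Leaving out 1 of its 3 measured Garonne eels took either contig under the minimum of 3 values, so it could not be tested.

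Of the contigs measured on all 10 arrays, contig_17000, contig_1093 and contig_33460 passed; contig_33460 was named for its level over both sites, not for its difference. contig_17000 was at 2.59, 2.37, 4.63, 3.77 and 5.66 in Garonne fins A353, A359, A360, A362 and A365, and at 0.71, 0.70, 0.21, 0.05 and 0.29 in Certes fins A201, A203, A205, A207 and A210. The lowest Garonne fin was more than 1 log2 unit above the highest Certes fin. The difference was 3.41 ± 0.59 (SE, limma adjusted p = 0.00064), and the adjusted p ran from 9.68e-08 to 0.053 over 26 alternatives. The only alternative that ended the call was the fit of the 10 recentred arrays, at 3.04. contig_1093 was at 1.24, 1.33, 3.96, 1.37 and 6.80 in Garonne fins A353, A359, A360, A362 and A365, and between -0.10 and 0.14 in the Certes fins, with a difference of 2.93 ± 0.78 (SE, limma adjusted p = 0.038). Garonne eels A360 and A365 carried most of it, and without A365 the difference was 1.96 and the call ended. contig_33460 was at 6.21, 1.41, 5.47, 3.37 and 4.90 in Garonne fins A353, A359, A360, A362 and A365, and at 1.23, 1.44, 1.58, 1.60 and 2.36 in Certes fins A201, A203, A205, A207 and A210. Here Garonne eel A359 lay within the Certes range, and the difference was 2.63 ± 0.66 (SE, limma adjusted p = 0.026). The calls of contig_1093 and contig_33460 each ended under 15 of 26 alternatives, with differences of 1.96 to 2.96 and 1.42 to 2.63.

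The smallest p of all belonged to contig_18948, which was named after its values were seen. It was at 1.98, 2.66, 2.97 and 4.80 in Garonne fins A359, A360, A362 and A365, and between -0.33 and 0.32 in the 5 Certes fins. The difference was 3.21 ± 0.54 (SE, limma adjusted p = 0.00059), without overlap, and 24 of 25 alternatives kept it past the threshold. The remaining 2, contig_4845 and contig_26012, were also named after their values were seen. They differed by 3.0 ± 0.70 (limma adjusted p = 0.017) and 2.96 ± 0.80 (limma adjusted p = 0.047), with 4 eels measured in the Garonne and 5 in Certes for each. The call of contig_26012 ended under 15 of 25 alternatives and that of contig_4845 under 6, with the smallest differences, on scaling, of 2.28 and 2.17.

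**Figure D5:**
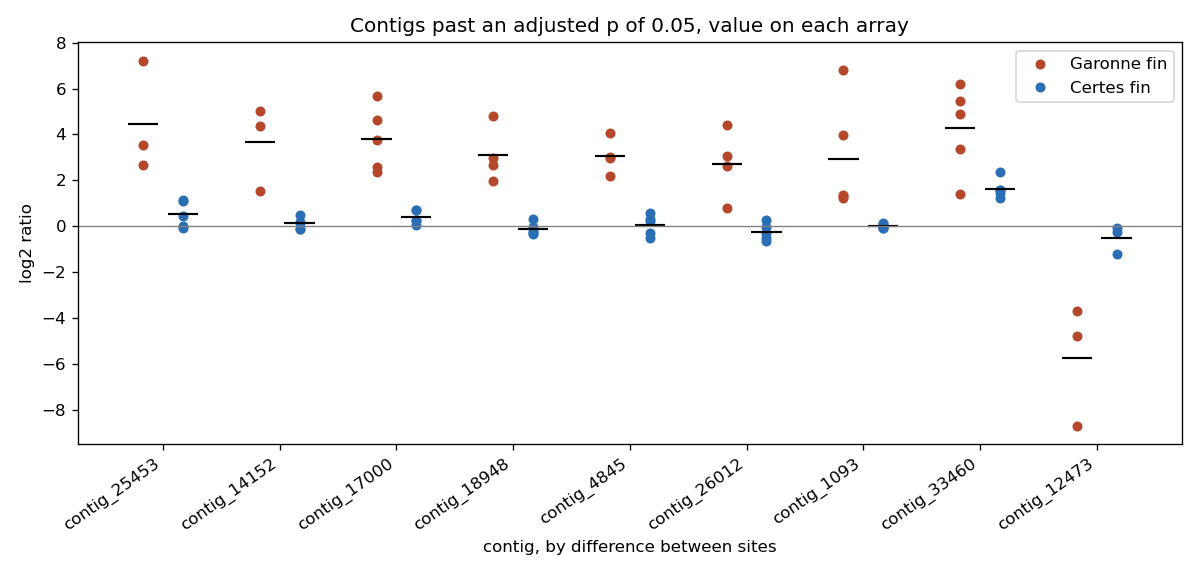
Log2 ratio of the 9 contigs past a limma adjusted p of 0.05 on each Garonne and Certes fin array (points) with the site mean (line), ordered by the difference between sites. For 8 contigs the Garonne mean is higher, at 2.72 to 4.47; contig_12473, at the right, is lower.

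The single lower contig was measured on 3 eels of each site. contig_12473 was at -8.70, -3.71 and -4.81 in Garonne fins A353, A359 and A360, and at -1.21, -0.23 and -0.09 in Certes fins A201, A203 and A205. The difference was -5.23 ± 1.25 (SE, limma adjusted p = 0.026), without overlap. Certes arrays A207 and A210, which had the fewest contigs of their site, and Garonne arrays A362 and A365 held no value. Its call ended in the fit of the 10 arrays (-5.23), on recentring (-5.24 and -5.60), in the fit of the 10 recentred arrays (-5.60), on scaling (-3.56) and on quantile normalization (-2.75), and it could not be tested without any of the 6 eels measured. contig_17613 had the next smallest p of this direction and did not pass, at -7.54, -3.34 and -4.64 in the same 3 Garonne fins and -1.12, 1.13 and -2.44 in the same 3 Certes fins (difference -4.36 ± 1.24, SE, limma adjusted p = 0.063).

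By their mean, the other groups labelled as fin lay nearer to Certes than to Garonne fins in these contigs. Among them are the Gironde and 50 ng/g PCB arrays and Cd fish 45, whose profiles were unlike those of the other fins. In Gironde fins 8 of the 9 contigs had 2 or more values, and 0 of the 8 group means were nearer to the Garonne than to the Certes mean. The count was 0 of 9 in each of the control, 50 ng/g PCB, 300 ng/g PCB and Cd fins. contig_17000, at 3.80 ± 1.39 in Garonne fins, averaged 0.97 ± 0.66 in control fins, 0.65 ± 1.37 at 50 ng/g PCBs, 0.78 ± 0.52 at 300 ng/g PCBs and 0.13 ± 0.36 in Cd fins (SD, n = 5 each), and no Gironde array held a value. contig_18948, at 3.10 ± 1.20 in Garonne fins (SD, n = 4), averaged 0.20 ± 0.59 in Gironde fins (n = 4) and -0.37 ± 0.39 in control fins (n = 5). Single fins of other groups reached the Garonne range in contig_17000, contig_1093, contig_33460, contig_4845, contig_26012 and contig_14152. In contig_25453, contig_18948 and contig_12473 none did. The highest 50 ng/g PCB fin stood at 2.78 in contig_17000, 2.94 in contig_4845 and 3.76 in contig_26012. The lowest Garonne values there were 2.37, 2.18 and 0.79. In contig_1093 the highest Gironde fin stood at 2.58, above the lowest Garonne value of 1.24. contig_33460 averaged 2.80 ± 0.56 in Gironde fins (SD, n = 3), within its Garonne range of 1.41 to 6.21. Its means in control (1.82), 300 ng/g PCB (2.30) and Cd fins (1.44) also lay in that range. Its mean in 50 ng/g PCB fins (-0.87) did not. For contig_14152 the highest control fin stood at 2.90, above the lowest Garonne value of 1.54. The contigs were chosen for a difference of Garonne from Certes in a fit that includes these groups, so their means are given without a test. That choice favours Garonne means far from the array centre, so the counts above follow in part from it. The share of all contigs tested that lay nearer to Garonne was not counted.

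The number of calls turned on the values required and on the arrays that set the spread. With a minimum of 2 values per site, 31 of 530 contigs (5.85%) passed, 20 higher and 11 lower in Garonne fins, and the 9 contigs above were among them. Of these 31, 16 rested on exactly 2 values at a site, 8 higher and 8 lower. With 4 values required 5 of 372 passed, and with all 5 values 1 of 313. When the Gironde and 50 ng/g PCB arrays and that of Cd fish 45 were left out of the fit, 68 of 450 passed. Of these 68, 66 were higher. With recentring on the 313 contigs as well, added after seeing the data, 39 of 450 passed, 32 higher and 7 lower. The 9 contigs were among the 68, with adjusted p-values of 1.86e-05 to 0.014 from limma. Leaving out 1 eel gave 3 contigs without Certes A201 or Garonne A360, 4 without Certes A203, 5 without Certes A205 or Garonne A353 or A359, 6 without Certes A207, 7 without Certes A210 or Garonne A362 and 8 without Garonne A365. The contigs tested then numbered from 384, without Garonne A360, to 450, without Certes A207.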

How the data were processed

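The values are the log2 ratios of the deposited value table, with no value left out or imputed. Per the labels, samples carried Cy3 and the common reference Cy5. The log base was taken from the range of the values, and the arrays had been centred on their medians by the authors, as the values show. The sources used here do not give spot filtering or background correction. A scanner table of 180 columns, numbered by slide, was not used, because its columns name no sample. For arrays the number of arrays limits the precision.

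Groups came from the sample titles, and each fin array has its own eel number. The control and Cd livers carry the same numbers as the control and Cd fins. Group means of all 35 fin arrays were fitted with lmFit and eBayes (limma 3.58.1, R 4.3.3). P-values were two-sided, adjusted by Benjamini and Hochberg over contigs with at least 3 values per site, with a threshold of 0.05. Array-level values were compared by exact permutation (scipy 1.17.1). The fit was tested on simulated data with normal noise, the same spread in all groups and no shift of whole arrays. That simulation therefore does not cover the differences in spread and centre described above. Alternatives changed the minimum of values, the arrays fitted, centring, scaling, array weights, the variance prior and the sign of Gironde A306, or left out 1 eel. Named contigs were those with the largest differences past the threshold, overall and with all values, the smallest p where under 2 passed in a direction, and the 2 highest and lowest levels. The 35 fin arrays enter 1 fit, but within-contig spread differs between groups. Members, lists and the comparison were chosen with earlier results of these data known. Gene lists noted for the case that names were found have no result.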

Additional observations from a re-analysis of the deposited data

How the results depend on the processing

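The count of 9 contigs was 31 of 530, 5 of 372 and 1 of 313 with at least 2, 4 and 5 values per site. Of 450 contigs tested, it was 21 in the fit of the 10 arrays (5 of the 9 among them). Of the same 450 it was 68 without the Gironde, 50 ng/g PCB and Cd fish 45 arrays and 91 with array weights. It was 3 on either recentring, 2 on scaling to one spread and 2 on quantile normalization. In alternatives added after seeing the data it was 1 in the fit of the 10 recentred arrays, with 85 unadjusted p under 0.05, and 39 (32 higher, 7 lower) with recentring and without the Gironde, 50 ng/g PCB and Cd fish 45 arrays. It was 6 in the fit of the 15 wild fins, and 9 with robust eBayes, a trend or the sign of Gironde A306 turned. Leaving out 1 eel gave 3 to 8, with 384 to 450 contigs tested. The median difference of 0.48 was 0.11 in each setting recentred on the 313 contigs and 0.71 on quantile normalization, and 0.42 to 0.54 without 1 eel. The difference in contigs per array was -328.3 to -244.1 without 1 eel (exact permutation p = 0.016). That in mean absolute ratio was 0.016 over contigs on all fin arrays, 0.13 for the median, 0.60 over all values, and 0.17 to 0.26 without 1 eel. That in mean ratio was 0.16 over contigs on all fin arrays, -0.30 over all values, and 0.44 to 0.54 without 1 eel. No sign of a named contig past the threshold turned under the alternatives run. The cause of these changes was not tested, except that fewer contigs or eels entered where values were required or eels left out. No paired analysis was possible because Garonne and Certes eels share no number. In the 26 groups of 4 or 5 eels examined, no array-level or contig value lay far enough from its site's others to pass Dixon's test. Groups of 3 eels, such as the Garonne values of contig_25453 and contig_14152, were not examined. With 4 or 5 values the test finds few outliers, so its result does not show that no eel stood apart.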
